A study of Homo sapiens with 8 samples.

Results

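The circadian clock genes described here are 10 genes of the molecular clock: RORA, BHLHE40, NFIL3, CRY1, PER1, PER2, NR1D2, CLOCK, BMAL1 and DBP. They were followed in HepG2, a human hepatocellular carcinoma cell line, on 8 Affymetrix 3' expression arrays. Cells that had been deprived of serum were given serum-free medium with 3 μM quercetin, a plant flavonol, or serum-free medium alone as the control, and RNA was taken after 2, 4, 12 and 24 h. There was 1 array for each treatment at each time. Members were found through the platform annotation as the probe sets listing exactly 1 symbol, that of a clock gene or its older alias (ARNTL for BMAL1). This gave 24 of the 54675 probe sets on the array, for 9 of the 10 genes. All 4 probe sets that list PER1 list another symbol too, so PER1 was given no value. Of the 24 probe sets, 15 had a mean above the median of all probe sets (7.43 on the log2 scale), and each of the 9 genes had at least 1. The probe set with the highest mean stood for its gene, and all 9 genes were among the 13298 genes tested of 19775 with a probe set of 1 symbol. No gene was lost to the filter on dim values.

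The mammalian clock is a transcriptional feedback loop that runs in most cells, the liver among them. CLOCK and BMAL1 form an activator that binds E-boxes, and the PER and CRY proteins made from its target genes gather into a complex that represses it. A further loop runs through ROR elements, where ROR receptors activate and REV-ERB receptors (NR1D1, NR1D2) repress genes such as BMAL1, and another through D-boxes, where DBP activates and NFIL3 represses. BHLHE40, also called DEC1, is a repressor that competes for E-boxes.

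Over the hours in the medium 6 of the 9 genes changed by limma's F-test, which called 38.1% of all genes. RORA, BHLHE40, NFIL3 and CRY1 rose by 24 h against 2 h, by 3.86-fold, 3.18-fold, 2.57-fold and 1.65-fold. PER2 and NR1D2 rose between 12 and 24 h, by 1.71-fold and 2.23-fold. The 12 h and 24 h arrays also differed in the signal of the hybridisation spike-ins, which cannot be told apart from time there. These calls of CRY1 and PER2 were each lost in 3 of 22 alternative settings. CLOCK, BMAL1 and DBP passed no test over time. No clock gene passed the test of quercetin against control over the 4 times, and 8 of the 9 means were below 0, as were 7606 of the 13298 over all genes. BHLHE40 was the 1 gene whose quercetin difference departed between the early and the late times, a call that most alternative settings did not keep.

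Promoter windows are shown for the 4 genes with the smallest p over time (RORA, NFIL3, BHLHE40 and CRY1), so that the clock elements in them can be seen beside the values. The NR1D2 and PER2 windows were added after the matches were seen, because each holds over 1 element. The sequences are from the RefSeq promoter table of GRCh38.p14 and span 300 bases each, from upstream of an annotated start site to just past it, 5′ to 3′ on the gene's own strand. Capitals mark a match to 1 of 5 motifs searched on both strands. These were the E-box CACGTG, the E-prime box CACGTT, the ROR element core AGGTCA, the D-box TTANGTAA and the cAMP response element TGACGTCA. The windows lie at chr15:60627481-60627780 (minus strand) for RORA, chr9:91423783-91424082 (minus) for NFIL3, chr3:4979187-4979486 (plus) for BHLHE40, chr12:107093500-107093799 (minus) for CRY1, chr3:23945871-23946170 (plus) for NR1D2 and chr2:238288561-238288860 (minus) for PER2.
RORA: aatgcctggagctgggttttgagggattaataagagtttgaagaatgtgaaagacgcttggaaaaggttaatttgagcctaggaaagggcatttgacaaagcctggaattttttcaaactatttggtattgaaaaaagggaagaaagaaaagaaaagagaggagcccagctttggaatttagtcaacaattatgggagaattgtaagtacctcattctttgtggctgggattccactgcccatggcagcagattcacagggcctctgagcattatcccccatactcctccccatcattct
NFIL3: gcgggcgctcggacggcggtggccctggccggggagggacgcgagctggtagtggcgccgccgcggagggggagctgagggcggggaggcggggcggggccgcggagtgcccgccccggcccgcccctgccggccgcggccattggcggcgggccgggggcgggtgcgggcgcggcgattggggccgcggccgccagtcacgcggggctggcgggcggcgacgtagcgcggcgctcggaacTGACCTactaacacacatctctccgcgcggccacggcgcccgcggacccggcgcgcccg
BHLHE40: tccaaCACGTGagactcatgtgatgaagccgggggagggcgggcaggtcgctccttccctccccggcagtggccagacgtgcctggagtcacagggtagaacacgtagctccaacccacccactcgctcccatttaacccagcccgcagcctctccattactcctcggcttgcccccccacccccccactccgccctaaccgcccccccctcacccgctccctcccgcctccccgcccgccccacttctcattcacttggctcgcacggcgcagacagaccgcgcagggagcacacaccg
CRY1: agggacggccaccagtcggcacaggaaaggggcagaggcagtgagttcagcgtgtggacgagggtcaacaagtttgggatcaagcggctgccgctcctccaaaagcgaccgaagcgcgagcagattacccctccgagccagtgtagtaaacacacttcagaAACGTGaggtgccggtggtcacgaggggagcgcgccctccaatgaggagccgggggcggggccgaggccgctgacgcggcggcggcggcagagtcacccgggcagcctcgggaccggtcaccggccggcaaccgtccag
NR1D2: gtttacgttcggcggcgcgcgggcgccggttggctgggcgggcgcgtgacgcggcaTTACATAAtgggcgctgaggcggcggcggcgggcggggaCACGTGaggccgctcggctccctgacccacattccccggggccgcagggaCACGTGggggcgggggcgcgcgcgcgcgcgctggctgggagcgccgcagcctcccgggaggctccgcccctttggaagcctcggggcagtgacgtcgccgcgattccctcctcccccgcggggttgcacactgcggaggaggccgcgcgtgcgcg
PER2: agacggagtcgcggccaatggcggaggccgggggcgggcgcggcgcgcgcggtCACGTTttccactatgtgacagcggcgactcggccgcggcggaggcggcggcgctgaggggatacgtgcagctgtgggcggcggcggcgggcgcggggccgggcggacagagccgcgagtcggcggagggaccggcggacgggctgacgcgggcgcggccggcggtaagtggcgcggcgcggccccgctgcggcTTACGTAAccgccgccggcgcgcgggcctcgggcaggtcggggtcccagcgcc
The BHLHE40 window held an E-box starting 245 bases before the start site, and the NR1D2 window held an E-box at 155 and at 105 bases before it with a D-box at 194 bases before it. An E-prime box lay 89 bases before the start site of CRY1 and 197 bases before that of PER2. The PER2 window also held a D-box that begins 3 bases before the start site and reads as a match on both strands. NFIL3 had a ROR element core 9 bases before this start site. The RORA window held none of the 5 motifs, nor did the other annotated NFIL3 and NR1D2 windows, which are not shown. The RORA window lies inside the span of the gene (chr15:60488284-61229302), far from its 5′ end, which was not searched. The NFIL3, NR1D2 and PER2 windows shown also lie inside the spans of their genes. Apart from the PER2 D-box read on both strands, no match overlapped another. Among all 35116 windows of the table, 7.26% held the E-box, 5.34% the E-prime box, 13.8% the ROR element core, 2.18% the D-box and 1.85% the cAMP response element. Over the 14 windows of the 10 genes these counts were 3, 3, 3, 2 and 0. A match describes the letters of a window and is not evidence of binding.

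Before the results, the state of the arrays matters. All 9 liver markers with a usable probe set (ALB, AFP, APOA1, APOB, TTR, SERPINA1, FGB, TF and AHSG) averaged 11.46 to 15.09. Of 10 leukocyte, endothelial and fibroblast markers, 7 were above the cutoff, with means of 7.52 to 9.23. Passing the cutoff is therefore not evidence that a gene is expressed in these cells. The means of RORA (8.93), CRY1 (8.95), NR1D2 (8.82), BMAL1 (8.36) and DBP (8.16) lay within that range. The hybridisation spike-ins divided the arrays into 3 with a lower mean signal (11.19 to 11.35), namely the control array at 2 h and both 12 h arrays, and 5 with a higher one (11.83 to 12.11). The 18S ribosomal RNA probe sets averaged 12.01, 11.62, 7.29 and 9.16 at 2, 4, 12 and 24 h with quercetin, against 8.57, 11.52, 7.35 and 9.82 in the control. Spike-in class therefore moves with the 12 h time point and with treatment at 2 h. Within a time it differs only at 2 h, so a fit with class as a block takes the class effect from that pair alone. For 12 h against 2 h such a fit gives the same difference as leaving out the quercetin array at 2 h. No label says that the arrays came from separate cultures, so a p-value here measures only the spread between the 2 arms or between the 4 times. Through limma's moderation that spread is drawn from all genes, and not from each gene alone. With 4 times inside a single day, no period or phase was estimated.

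**Figure D1:**
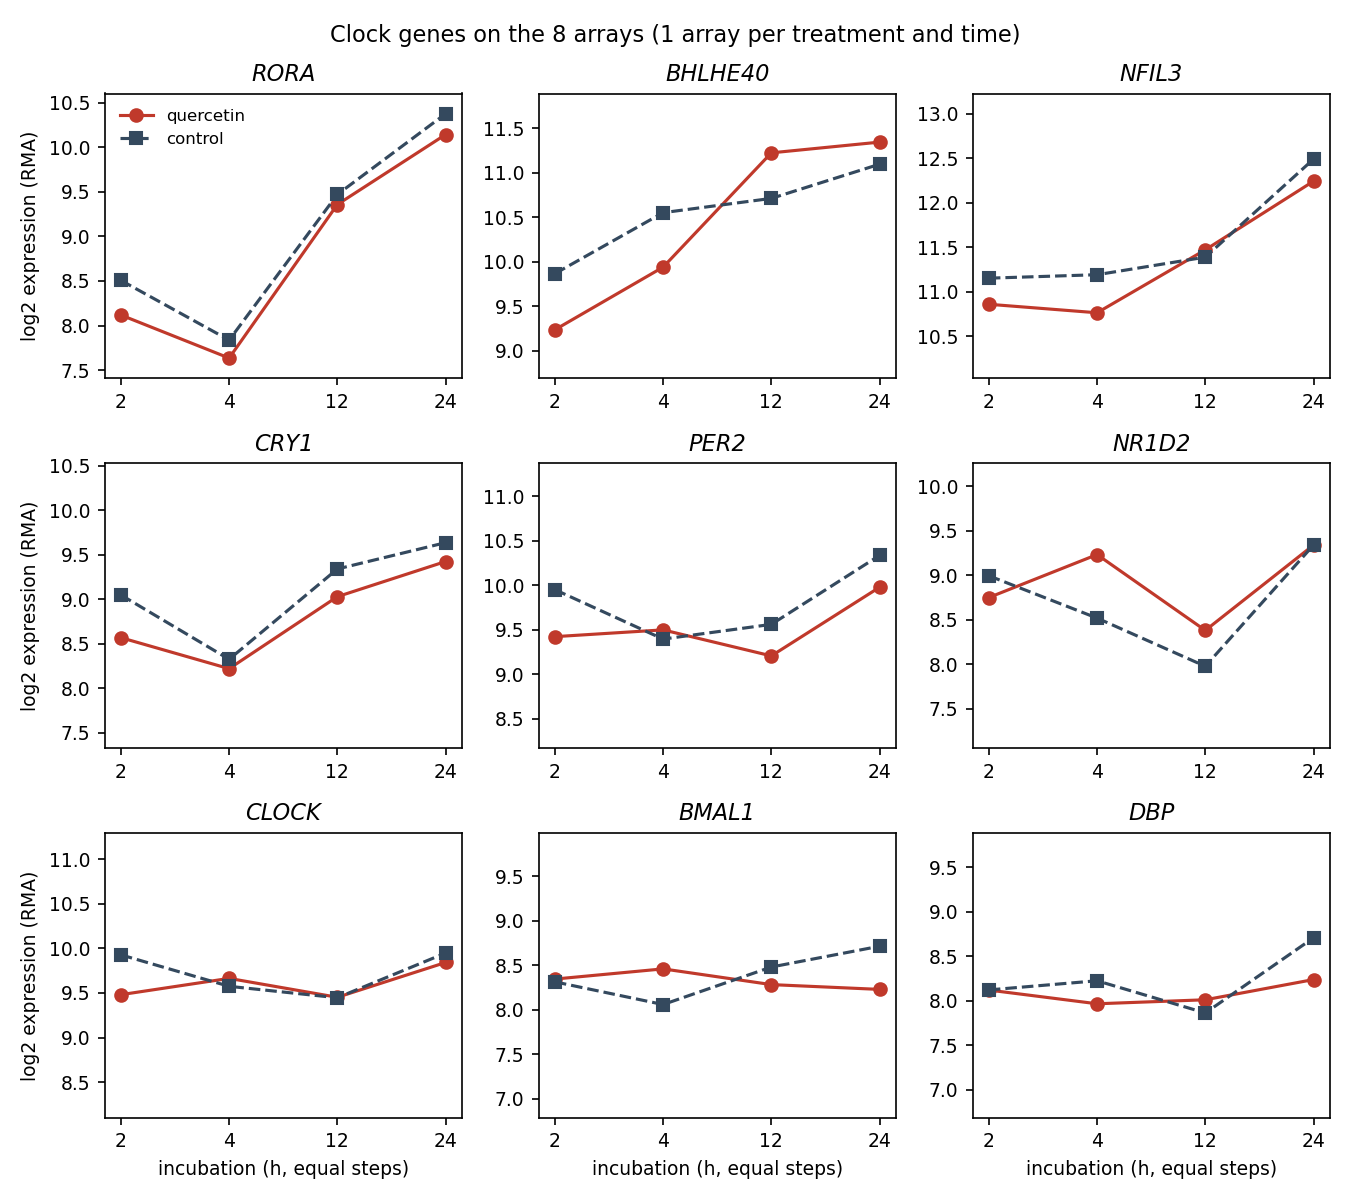
Log2 expression of the 9 clock genes on each array, with incubation time (2, 4, 12 and 24 h, drawn at equal steps) on the x axis, quercetin as red circles and solid lines and control as dark squares and dashed lines; each point is 1 array and every panel spans the same height. RORA climbs to 10.14 with quercetin and 10.38 in the control at 24 h, while BMAL1 stays between 8.06 and 8.71.

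The first question was whether the clock genes changed over the hours in serum-free medium. limma tested this with the quercetin and control arrays of a time as its 2 repeats, treatment as an added term, and Benjamini-Hochberg adjustment over all 13298 genes. The F-test over the 4 times called 6 of 9 clock genes, beside 38.1% of all genes. At 4 h against 2 h it gave an unadjusted p under 0.05 to 3 of 9 clock genes and to 2350 of the 13298 genes. By adjusted p it called 0 of 9 there, beside 0.534% of all genes, 0.0376% higher and 0.496% lower. At 12 h against 2 h it called 2 of 9, both higher, beside 3.00% of all genes, 1.68% higher and 1.32% lower. At 24 h against 2 h it called 4 of 9, all higher, beside 21.3% of all genes, 17.3% higher and 3.98% lower. Against 12 h, 24 h gave 4 of 9, again all higher, beside 23.7% of all genes, 19.0% higher and 4.78% lower. The median clock gene difference was 0.47 (log2) at 24 h against 2 h and 0.54 at 24 h against 12 h, where the medians over all genes were 0.093 and 0.157. All 9 clock genes had a positive difference in both contrasts, as did 8011 and 8823 of the 13298 genes.

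**Figure D2:**
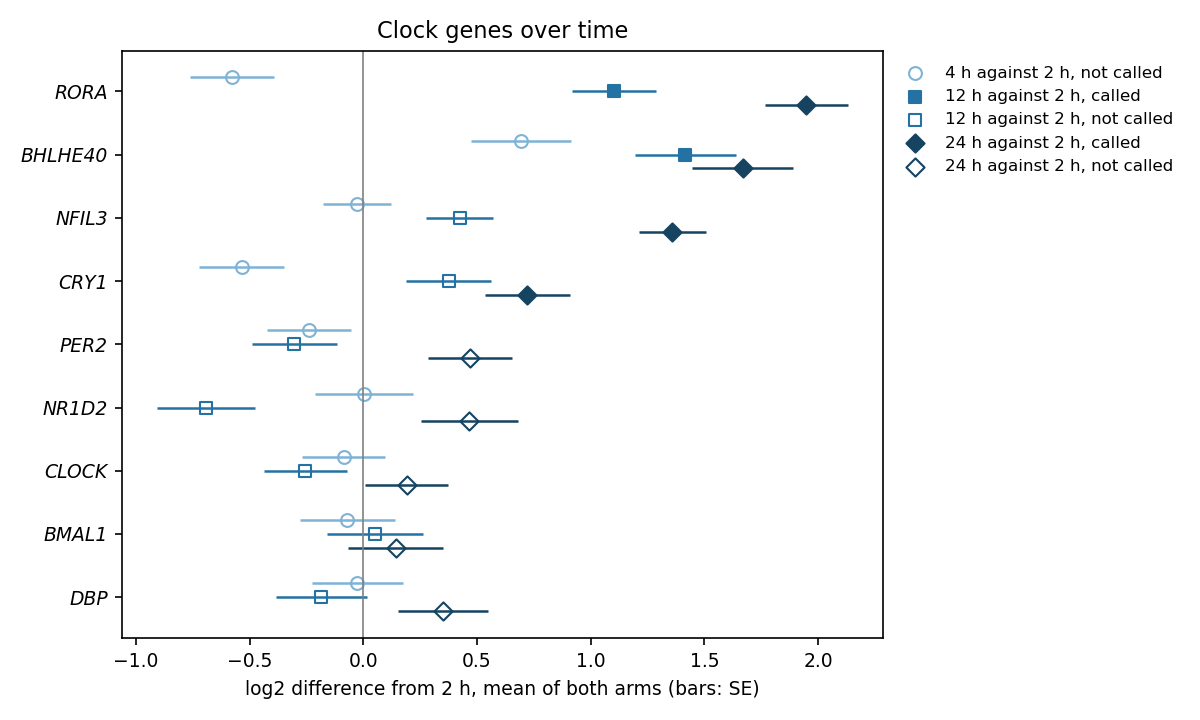
Log2 difference of each clock gene from 2 h at 4 h (circles), 12 h (squares) and 24 h (diamonds), each the mean of the quercetin and control arms with its SE from limma; filled marks passed an adjusted p of 0.05. RORA, BHLHE40, NFIL3 and CRY1 have filled diamonds, from 0.72 to 1.95, and no mark at 4 h is filled.

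Among the activators of the core loop, CLOCK (chr4:55427903-55546909, GRCh38.p14) had log2 levels of 9.48, 9.66, 9.45 and 9.84 at 2, 4, 12 and 24 h with quercetin, against 9.93, 9.57, 9.45 and 9.95 in the control. Both 12 h arrays lay below the other 6, as they did for NR1D2 and for 6.88% of all genes, and the whole span was 0.50. The F-test over times gave CLOCK an adjusted p of 0.224. BMAL1 (chr11:13276652-13387266), the partner of CLOCK, had 8.34, 8.46, 8.28 and 8.23 with quercetin, against 8.31, 8.06, 8.48 and 8.71 in the control. At 24 h the quercetin array was the lowest of its arm and the control array the highest of its arm. BMAL1 had an adjusted p of 0.828 over times.

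Among the repressors of the core loop, CRY1 (chr12:106991364-107093549), which carries the E-prime box shown above, had 8.57, 8.22, 9.03 and 9.42 with quercetin, against 9.05, 8.33, 9.34 and 9.64 in the control. Both 4 h arrays were its lowest and both 24 h arrays its highest. CRY1 rose by 0.72 ± 0.19 (SE) on the log2 scale at 24 h against 2 h, 1.65-fold, with an adjusted p of 0.00853. That call was lost without the quercetin array at 2 h (adjusted p = 0.139) and without the control or the quercetin array at 24 h (0.0637 and 0.0823). PER2 (chr2:238244044-238300065), a period protein that brings the CRY proteins to the repressor complex, had 9.42, 9.50, 9.21 and 9.98 with quercetin, against 9.95, 9.40, 9.56 and 10.34 in the control. Both 24 h arrays lay above the other 6, and the quercetin array at 12 h was the lowest. PER2 rose by 0.77 ± 0.19 at 24 h against 12 h, 1.71-fold (adjusted p = 0.00523), while the difference of 0.47 ± 0.19 against 2 h did not pass (0.0778). Its F-test p of 0.00816 was lost without the control or the quercetin array at 24 h (0.129 and 0.0658). The call against 12 h was lost with the mean of probe sets, where the difference was 0.33 (adjusted p = 0.119). It was also lost without the control array at 24 h and with spike-in class as a block, with differences of 0.72 (0.0897) and 1.10 (0.0522).

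In the ROR element loop, RORA (chr15:60488284-61229302), the retinoic acid receptor-related activator, had the widest span of the 9 genes. It had 8.12, 7.63, 9.36 and 10.14 with quercetin, against 8.51, 7.84, 9.47 and 10.38 in the control. Both arms were lowest at 4 h, stood above their 2 h level at 12 h and were highest at 24 h. RORA rose by 1.95 ± 0.18 on the log2 scale at 24 h against 2 h, 3.86-fold (adjusted p = 4.98e-07), and this call held in all 21 alternatives run for it. The mean of probe sets was not among them, since RORA did not pass the filter in that setting. At 12 h against 2 h the rise was 1.10 ± 0.18, or 2.15-fold (adjusted p = 0.00187), and at 24 h against 12 h it was 0.85 ± 0.18, or 1.80-fold (0.00259). The 12 h call was lost with spike-in class as a block (0.0659) and without the quercetin array at 2 h (0.0634), the difference being 1.0 in both settings. The call at 24 h against 12 h was lost with that block, where the difference was 1.05 (0.0661), and without the control array at 12 h, where it was 0.76 (0.0623). The 4 h difference of -0.58 ± 0.18 did not pass (0.112).

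NR1D2 (chr3:23945286-23980617), the REV-ERB beta receptor that represses through the same elements, had 8.75, 9.23, 8.38 and 9.34 with quercetin, against 8.99, 8.52, 7.98 and 9.34 in the control. Both 12 h arrays were the lowest and both 24 h arrays the highest, and the arms stood furthest apart at 4 h. NR1D2 rose by 1.16 ± 0.22 at 24 h against 12 h, 2.23-fold (adjusted p = 0.000715), a call kept in all 22 alternatives. The difference of -0.69 ± 0.22 at 12 h against 2 h missed the threshold (0.0889). The 12 h and 24 h arrays differ in spike-in class. The rise held with that class as a block, but the block takes the class effect from the 2 h pair alone. It cannot separate class from time in this contrast.

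In the D-box loop the repressor and the activator gave different results. NFIL3 (chr9:91409045-91483497), the bZIP repressor also known as E4BP4, had 10.86, 10.76, 11.47 and 12.24 with quercetin, against 11.15, 11.19, 11.39 and 12.49 in the control. Its 4 arrays at 2 and 4 h lay below both 12 h arrays, and both 24 h arrays lay above all others. NFIL3 rose by 1.36 ± 0.15 at 24 h against 2 h, 2.57-fold (adjusted p = 2.62e-06), and by 0.94 ± 0.15 at 24 h against 12 h, 1.91-fold (0.000182). Both calls held in all 22 alternatives. As for NR1D2, the class block cannot separate spike-in class from time at 24 h against 12 h. DBP (chr19:48630030-48637379), the activator at these sites, had 8.12, 7.97, 8.01 and 8.24 with quercetin, against 8.12, 8.23, 7.87 and 8.71 in the control. Both 24 h arrays were again the highest, the quercetin one by a small margin. The DBP difference of 0.54 ± 0.20 at 24 h against 12 h did not pass (adjusted p = 0.0547), nor did the F-test (0.151).

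BHLHE40 (chr3:4979437-4985323), the E-box competitor, had 9.24, 9.94, 11.22 and 11.34 with quercetin, against 9.87, 10.55, 10.71 and 11.10 in the control. Each arm was higher at each later time, and both 2 h arrays lay below the other 6, which held for 1.90% of all genes. BHLHE40 rose by 1.42 ± 0.22 at 12 h against 2 h, 2.67-fold (adjusted p = 0.00108), and by 1.67 ± 0.22 at 24 h against 2 h, 3.18-fold (2.54e-05). The 24 h rise held in all 21 alternatives, whereas the 12 h call was lost with spike-in class as a block (0.0743) and without the quercetin array at 2 h (0.0668), the difference being 1.08 in both settings. The 24 h against 2 h difference was 2.11 in the quercetin arm and 1.23 in the control arm. Over the clock genes as a whole, both 24 h arrays lay above the other 6 for 6 of 9 (RORA, NFIL3, CRY1, PER2, NR1D2 and DBP), beside 29.6% of all genes. Both 4 h arrays lay below the other 6 for RORA and CRY1, beside 17.4% of all genes.

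The second question was whether quercetin at 3 μM changed clock gene levels. Over the 4 times limma called 0 of 9 clock genes, beside 0% of all genes, and the smallest adjusted p was 0.844. At an unadjusted p under 0.05 there were 3 of 9 (NFIL3, CRY1 and PER2) and 785 of the 13298 genes. The median clock gene difference was -0.15, against a median of -0.026 over all genes. An exact sign-flip test over 4 pairs cannot give a two-sided p below 0.125.

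**Figure D3:**
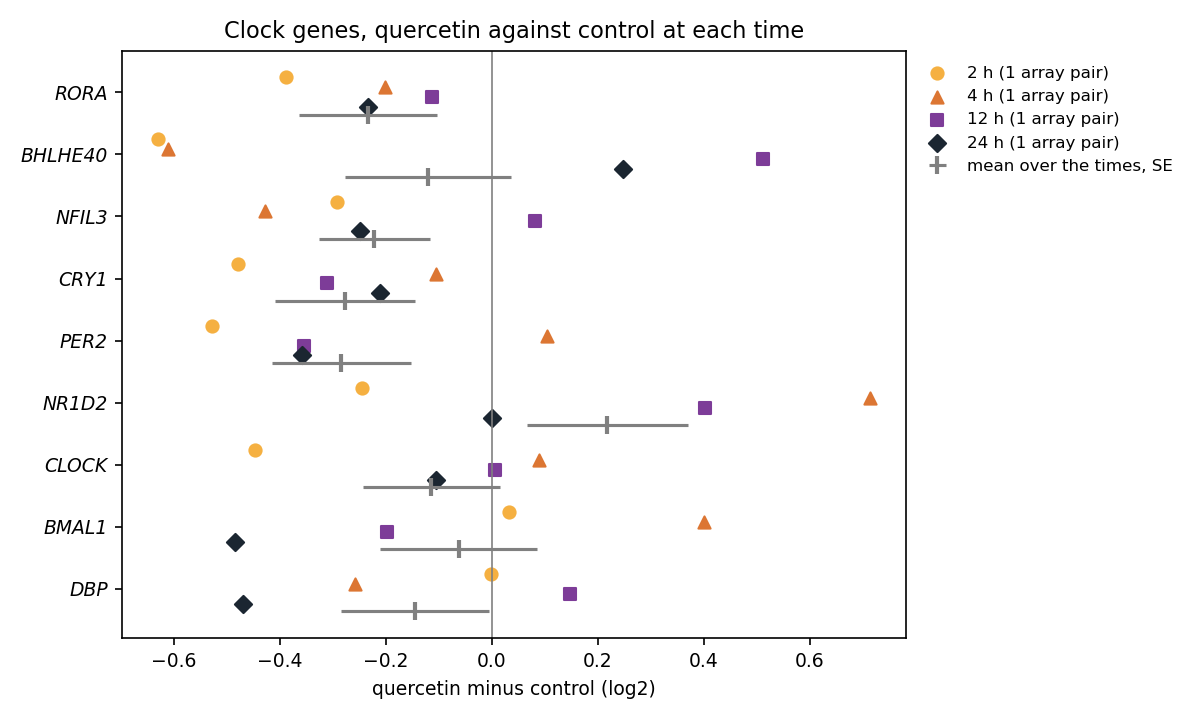
Quercetin minus control (log2) for each clock gene at 2 h (circles), 4 h (triangles), 12 h (squares) and 24 h (diamonds), each from 1 array pair, with the mean over the times and its SE as a grey tick and bar below them. RORA and CRY1 have all 4 points left of 0, and the BHLHE40 points lie at -0.63 and -0.61 early and at 0.51 and 0.25 late.

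RORA was lower with quercetin at all 4 times by the probe set used, the log2 differences being -0.39, -0.20, -0.11 and -0.23 in order of time. Their mean was -0.23 ± 0.13 (SE, adjusted p = 0.855). CRY1 was also lower at all 4, with differences of -0.48, -0.11, -0.31 and -0.21 and a mean of -0.28 ± 0.13 (0.844). These were the 2 clock genes with that pattern, beside 9.28% of all genes. PER2 differed by -0.53, 0.10, -0.35 and -0.36, with a mean of -0.28 ± 0.13 (0.844), and so was lower at 3 of 4 times. NFIL3 differed by -0.29, -0.43, 0.08 and -0.25, with a mean of -0.22 ± 0.10 (0.844), the exception being 12 h. CLOCK had a mean of -0.11 ± 0.13 (0.902), most of it from -0.45 at 2 h. The D-box activator DBP had -0.0017, -0.26, 0.15 and -0.47, with a mean of -0.15 ± 0.14 (0.893).

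NR1D2 was the 1 gene with a positive mean, 0.22 ± 0.15 (adjusted p = 0.867). Its differences were -0.24, 0.71, 0.40 and -0.00024 at 2, 4, 12 and 24 h, so both signs occurred. For BMAL1 they were 0.03, 0.40, -0.20 and -0.48, with a mean of -0.06 ± 0.15 (0.951), positive early and negative late. For BHLHE40 they were -0.63, -0.61, 0.51 and 0.25, with a mean of -0.12 ± 0.16 (0.918), negative early and positive late. The sign of the means of BHLHE40, NR1D2 and BMAL1 changed under some alternatives.

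At single times 1 array stood against 1, so differences were described by size, with 0.5 on the log2 scale (1.41-fold) as the threshold. At 2 h, 2 of 9 clock genes were at least that far apart, BHLHE40 and PER2, both lower with quercetin, beside 13.7% of all genes. The 2 h quercetin and control arrays were of different spike-in classes (means of 12.11 and 11.24). At 4 h there were also 2, BHLHE40 lower and NR1D2 higher, beside 2.96% of all genes. At 12 h BHLHE40 alone was past the threshold, higher with quercetin, beside 5.39% of all genes. At 24 h there were 0 of 9, beside 8.65% of all genes, the nearest being BMAL1 at -0.48 and DBP at -0.47. The medians over all genes were -0.060, -0.020, 0.050 and -0.10 at the 4 times, and the medians of the 9 clock genes were -0.39, -0.11, 0.0052 and -0.23.

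A further limma fit tested the late pair of times (12 and 24 h) against the early pair (2 and 4 h) for a change in the quercetin effect. It called 1 of 9 clock genes, BHLHE40, beside 0.368% of all genes. The late minus early quercetin difference of BHLHE40 was 1.0 ± 0.26 on the log2 scale (adjusted p = 0.0390). With eBayes without trend the limma adjusted p was 0.591. As run, both the SE and the p rest on limma's trend of spread with mean level over all genes. This fit leaves 2 residual degrees of freedom, and the call was kept in 7 of 21 alternatives, with adjusted p-values of 0.0256 to 1.0. It was lost without any 1 of the 6 arrays at 2, 4 or 12 h (adjusted p of 0.279 to 0.637). Leaving out either array of a time gave the same difference, so these are not separate checks. The sign of the difference was the same in all 21. BMAL1 had -0.56 ± 0.31 in the same fit, the opposite direction, and did not pass (1.0).

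Several clock genes had more than 1 probe set, and these did not always tell the same story. The 6 further probe sets above the cutoff belong to RORA, BHLHE40, NR1D2, DBP and CLOCK, the last with 2. For RORA the other probe set differed by 0.44 at 24 h against 2 h, smaller than the 1.95 of the one used. It was -0.0098 in the quercetin arm and 0.89 in the control arm. The 6 dimmer RORA probe sets ranged from -0.15 to 0.93 in the same contrast. Between quercetin and control, the other probe set above the cutoff differed by 0.53, 0.11, -0.16 and -0.38 in order of time. Their mean was 0.023. Of these 2 RORA probe sets, only the one used was lower with quercetin at all 4 times.

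The other BHLHE40 probe set was higher with quercetin at each time, by 0.08, 0.11, 0.34 and 0.06, so the early differences of -0.63 and -0.61 were seen in 1 of its 2 probe sets. Its 24 h against 2 h difference was 0.53, in the direction of the 1.67 of the one used. The other NR1D2 probe set differed between quercetin and control by -0.68, 0.13, -0.62 and -0.74, with a mean of -0.48, opposite in sign to the 0.22 of the one used. Over time it had 0.69 at 24 h against 12 h, again a positive difference. The other DBP probe set had -0.14 at 24 h against 12 h, where the one used had 0.54. Of the CLOCK probe sets, the other 2 had quercetin means of -0.26 and -0.30, and differences of -0.30 and 0.20 at 24 h against 2 h. Which transcripts each probe set measures was not tested.

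**Figure D4:**
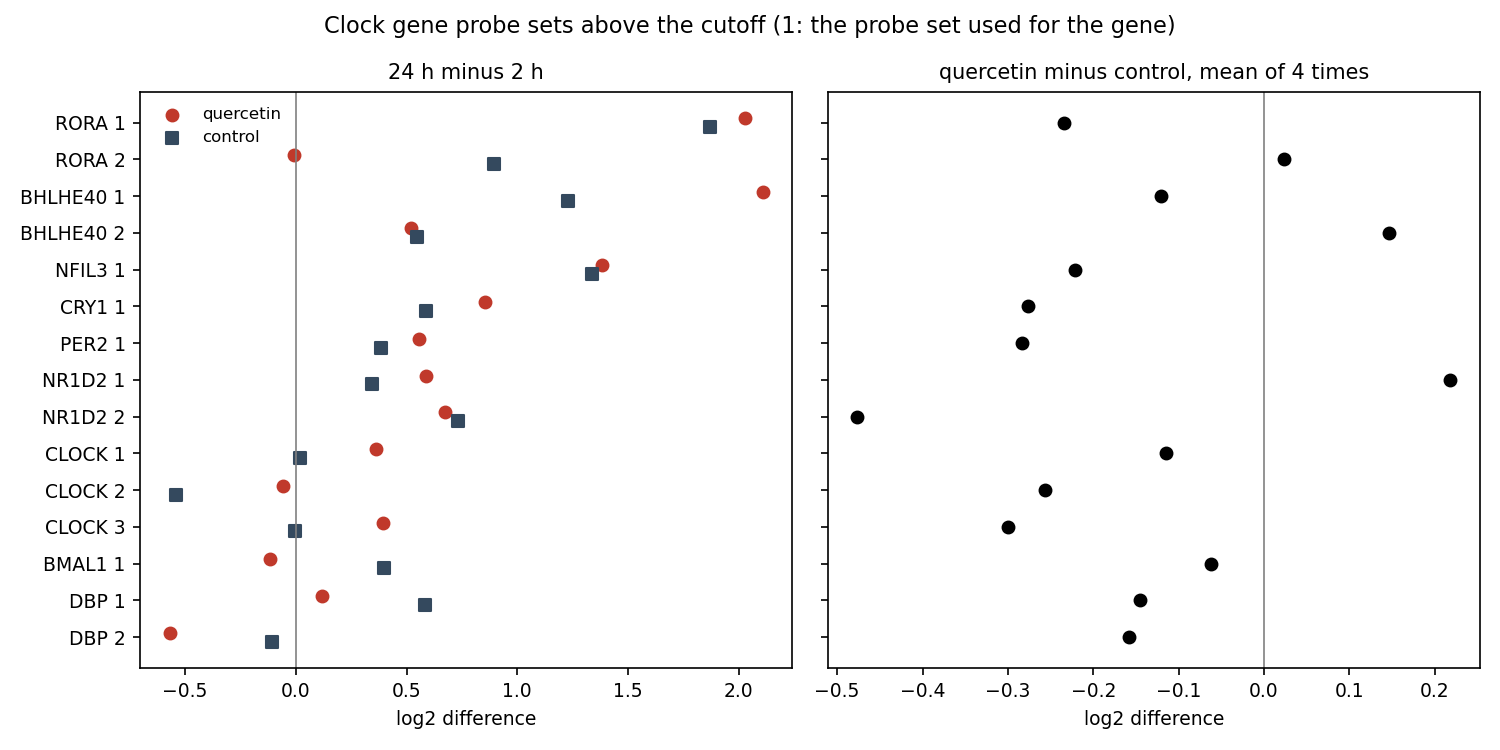
The 15 clock gene probe sets above the cutoff, 1 per row, where the number 1 marks the probe set used for its gene; the left panel plots the log2 difference of 24 h minus 2 h in the quercetin (red circles) and control (dark squares) arms, and the right panel the mean log2 difference of quercetin minus control over the 4 times. The first RORA and BHLHE40 rows lie well right of their second rows on the left, and the 2 NR1D2 rows lie on opposite sides of 0 on the right, at 0.22 and -0.48.

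Other genes of the clock were taken from 2 lists. Of 24 further clock components 21 had a usable probe set and 18 were tested. The F-test over times called 11 of the 18, beside 38.1% of all genes, and the contrast of 24 h against 2 h called 7, of which 6 were higher, beside 21.3% of all genes called and 17.3% called higher. SIRT1, a deacetylase that acts on clock proteins, rose by 1.11 ± 0.22 (log2, adjusted p = 0.00107). BTRC and FBXW11, the F-box proteins that mark PER proteins for degradation, rose by 0.71 ± 0.19 and 0.59 ± 0.17, and CSNK1D, the kinase that prepares PER for them, by 0.66 ± 0.18. HLF, a D-box activator related to DBP, rose by 0.59 ± 0.13. GSK3B, a clock protein kinase named after its value was seen, rose by 0.68 ± 0.23. TIMELESS, likewise named afterwards, was the 1 gene that fell, by 0.56 ± 0.18, and is known mainly for replication fork protection.

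At 24 h against 12 h, 6 of the 18 components passed, 5 of them higher, beside 23.7% of all genes called and 19.0% called higher. The values were CSNK1D at 0.80 ± 0.18, HLF at 0.80 ± 0.13, BTRC at 0.67 ± 0.19 and HNRNPU, an RNA-binding partner of clock proteins, at 0.38 ± 0.11. NONO, also named afterwards, rose by 0.44 ± 0.11, and TIMELESS fell by 0.55 ± 0.18. At 4 h and 12 h against 2 h 0 of 18 passed, beside 0.534% and 3.00% of all genes. An unadjusted p under 0.05 was met by 6 and 7 of the 18, and by 2350 and 2276 of the 13298 genes. For quercetin 0 of 18 passed, beside 0% of all genes, and 0 of 18 had an unadjusted p under 0.05, beside 785 of the 13298. These calls were less stable than those of RORA and NFIL3. Without the quercetin array at 2 h all 7 calls at 24 h against 2 h were lost (adjusted p of 0.0525 for TIMELESS to 0.394 for GSK3B), with differences of 0.37 for HLF, 0.43 for CSNK1D and 0.44 for GSK3B. FBXW11 had 0.26 with the mean of probe sets (0.276). With probe sets specific to a gene, BTRC had -0.19 in both 24 h contrasts. HLF kept its call at 24 h against 12 h in all 22 alternatives, though the class block cannot separate spike-in class from time there. In that contrast CSNK1D lost its call without the control array at 12 h, at 0.43 (0.154), and TIMELESS with spike-in class as a block, at -0.23 (0.703). NONO lost it under cyclic loess, at 0.096 (0.423), and HNRNPU under quantile normalization, at 0.017 (0.913).

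The second list held 15 outputs of the clock, known mostly from mouse liver. All 15 had a usable probe set, and 9 passed the filter on dim values. The F-test over times called 7 of these 9, again beside 38.1% of all genes. NAMPT, the enzyme that sets the pace of NAD salvage, rose by 0.86 ± 0.20 at 12 h against 2 h (adjusted p = 0.0195) and by 0.93 ± 0.20 at 24 h against 2 h (0.00205). ALAS1, the first enzyme of heme synthesis, rose by 0.83 ± 0.17 at 24 h against 2 h (0.00145). NOCT, or nocturnin, fell by 0.63 ± 0.21 (0.0395), so that 3 of 9 passed in that contrast, beside 21.3% of all genes. At 24 h against 12 h 3 of 9 passed, all higher, beside 19.0% of all genes called higher. They were POR, the electron donor of microsomal P450 enzymes, at 0.67 ± 0.17, the glucose transporter SLC2A2 at 0.59 ± 0.19, and CES2, a carboxylesterase named after its value was seen, at 0.53 ± 0.15. KLF10, a zinc finger factor, passed the F-test (0.0255). That call was lost in 7 of 21 alternatives, cyclic loess (0.143) and quantile normalization (0.159) among them. For quercetin 0 of 9 passed, beside 0% of all genes, and 0 of 9 had an unadjusted p under 0.05, beside 785 of the 13298. Without the quercetin array at 2 h NAMPT lost its call at 12 h, with a difference of 0.52 (adjusted p = 0.412), and at 24 h, with 0.58 (0.107). At 12 h it also had 0.52 with spike-in class as a block (0.420) and 0.47 with the mean of probe sets (0.229). NOCT lost its call without the quercetin array at 2 h, at -0.47 (0.349), and without the control array at 24 h, at -0.33 (0.505). POR lost its call at 24 h against 12 h without the control array at 12 h, at 0.36 (0.203), as did SLC2A2 without the quercetin array at 24 h, at 0.34 (0.356), and CES2 without the control array at 24 h, at 0.35 (0.318). The POR, SLC2A2 and CES2 calls were also lost under cyclic loess, at 0.36, 0.42 and 0.22, and under quantile normalization, at 0.32, 0.38 and 0.18. With spike-in class as a block they were lost at 0.95, 1.0 and 0.72. The ALAS1 call at 24 h against 2 h held in all 21 alternatives.

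**Figure D5:**
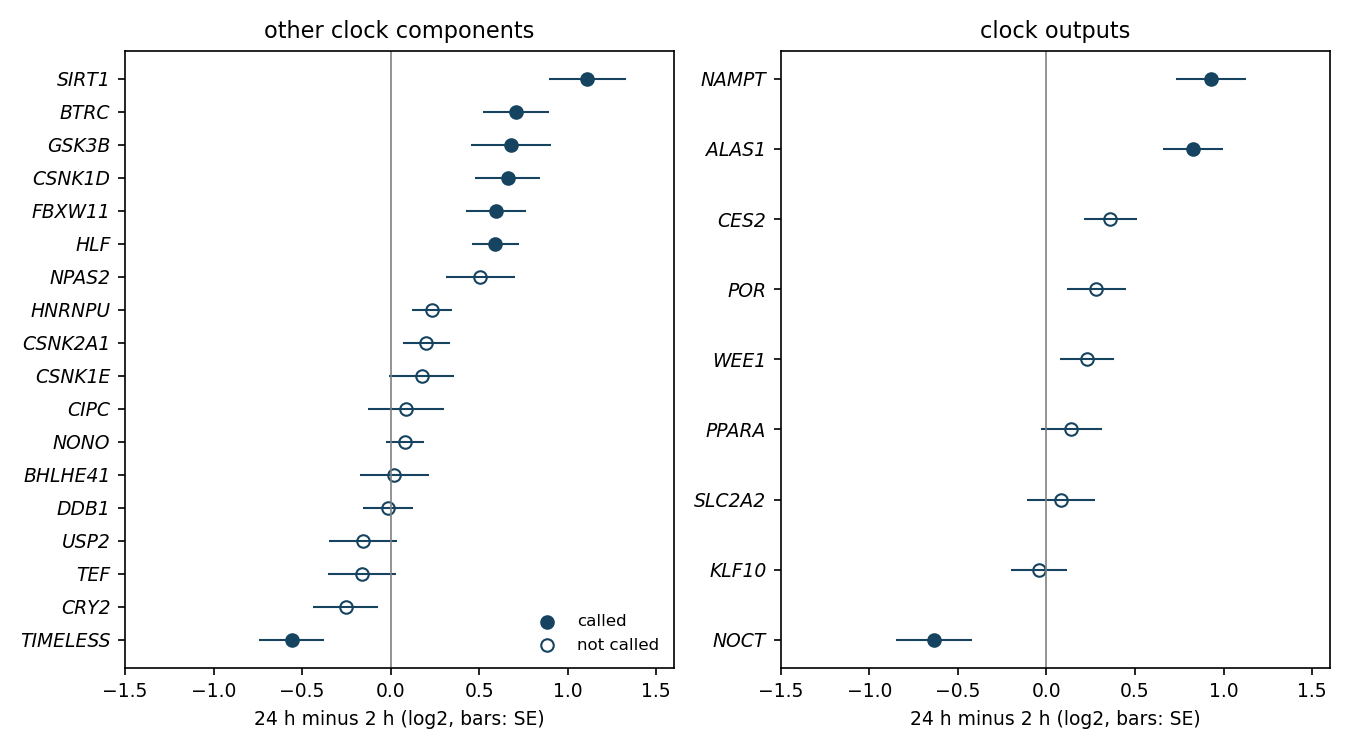
Log2 difference of 24 h minus 2 h, mean of both arms with its SE from limma, for the 18 tested clock components outside the 10 genes (left) and the 9 tested clock outputs (right); filled points passed an adjusted p of 0.05. SIRT1 (1.11) and NAMPT (0.93) lead the panels, and TIMELESS (-0.56) and NOCT (-0.63) are the filled points left of 0.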

How the data were processed

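The values are log2 expression values per probe set that the authors deposited as 1 table of 8 arrays, with RMA named in the submitters' processing notes. Neither its version nor its settings is given in the sources used here. Medians of the 8 arrays ran from 7.36 to 7.48, so alternatives that renormalize were run. Precision is limited by how few arrays there are. The probe set with the highest mean represented each gene, and genes above the median probe set mean were kept. The platform annotation named 41091 probe sets with 1 symbol, 1801 with several and 11721 with none.

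limma 3.58.1 in R 4.3.3 (lmFit, eBayes with trend) fitted time and treatment with 3 residual degrees of freedom, or 2 with the late term, and Benjamini-Hochberg adjustment ran over all 13298 genes at 0.05. Scripts were tested on simulated data. The 10 genes, the 2 lists and the tests were chosen with earlier results of these data known. All 10 genes are named. List genes are named where the F-test called them, up to 6 per list by adjusted p, and GSK3B, TIMELESS, NONO and CES2 were added after their values were seen, to account for the counts at 24 h. Fold changes come from log2 values of RMA. Correlations among members were not computed, since arrays of 1 time course are not independent samples. The length of the serum deprivation before treatment differs between labels and was not used. Alternatives covered the filter, the choice of probe set, normalization, moderation, spike-in class and each array left out.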

Additional observations from a re-analysis of the deposited data

Results flagged for a closer look

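BHLHE40 had a quercetin minus control difference that was negative at 2 and 4 h (-0.63 and -0.61 on the log2 scale) and positive at 12 and 24 h (0.51 and 0.25). The late minus early difference was 1.0 with a limma adjusted p of 0.0390, and the array pairs of the early times lay on the opposite side of 0 from those of the late times. The same test called 49 of 13298 genes. The BHLHE40 call was kept in 7 of 21 alternatives. Its other probe set above the cutoff was higher with quercetin at all 4 times, by 0.08, 0.11, 0.34 and 0.06. The change of sign was thus seen in 1 of its 2 probe sets.

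BMAL1 showed the opposite order, with differences of 0.03 and 0.40 at 2 and 4 h and of -0.20 and -0.48 at 12 and 24 h. The BMAL1 difference at 2 h was -0.037 with median centring, -0.0014 with cyclic loess and 0.034 with quantile normalization, so its early sign was not stable. Its late minus early difference was -0.56, and the limma test of that difference did not pass (adjusted p = 1.0).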

How the results depend on the processing

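The rises of RORA, BHLHE40 and NFIL3 at 24 h against 2 h kept direction and call in all alternatives run for them. RORA was not tested with the mean of probe sets, nor BHLHE40 with gene-specific probe sets. Quercetin called 0 clock genes in each alternative. The count at 4 h against 2 h (0) ranged from 0 to 1 with each array left out. At 12 h against 2 h (2) it was 1 with gene-specific probe sets or when probe sets were averaged, 0 with spike-in class as a block, and 0 to 3 with each array left out. Cyclic loess and quantile normalization gave 3 at 12 h against 2 h. At 24 h against 12 h (4) the count was 2 with the mean of probe sets and 2 with the class block, 5 with median centring and 6 at an adjusted p of 0.1. At 24 h against 2 h (4) it was 3 with averaged or gene-specific probe sets, and 5 with every probe set or the class block. The F-test count (6) was 4 with averaged probe sets, and 5 with gene-specific probe sets, cyclic loess or quantile normalization. Leaving out an array also moved these counts. The late against early count (1) was 0 without a filter, with averaged probe sets, gene-specific probe sets, median centring, cyclic loess, quantile normalization, eBayes without trend, the class block and 24 h against the other 3 times, and ranged from 0 to 1 with each array left out.

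For clock genes at least 0.5 apart between quercetin and control, the count at 2 h (2) was 0 with the mean of probe sets, cyclic loess, quantile normalization or a size of 1, 1 with gene-specific probe sets, 5 with every probe set and 4 with median centring. At 4 h (2) it was 0 with the mean of probe sets or a size of 1, and 1 with gene-specific probe sets. At 12 h (1) it was 2 with every probe set, and 0 with averaged or gene-specific probe sets, median centring, cyclic loess, quantile normalization or a size of 1. At 24 h (0) it was 1 with averaged or gene-specific probe sets or median centring, and 2 with every probe set.

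Signs turned for the BHLHE40 quercetin mean (0.013 with the mean of probe sets, 0.049 with the class block and without a 2 h array or the 2 h pair, 0.043 without a 4 h array or the 4 h pair, and -0.33 to 0.049 over all arrays left out), the NR1D2 quercetin mean (-0.13 with the mean of probe sets) and the BMAL1 quercetin mean (0.078 without a 24 h array or the 24 h pair, and -0.22 to 0.078 over all arrays left out). With gene-specific probe sets they also turned for DBP at 24 h against 12 h (-0.14) and for BTRC at 24 h against 2 h and against 12 h (-0.19 for both). The cause was not tested, beyond the other probe sets read in that setting. PER2 lost its F-test call with the mean of probe sets (0.226), cyclic loess (0.0699) and quantile normalization.

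Renormalizing lowered the median of all genes at 24 h against 12 h, to 0.0086 with cyclic loess and -0.0075 with quantile normalization against 0.157 as deposited, and the share of calls that were higher to 49.6% and 45.2% against 79.9%. At 24 h against 2 h that share was 60.2% and 57.2% against 81.3%, and at 12 h against 2 h 66.1% and 68.8% against 55.9%. The clock genes called at 24 h against 2 h and against 12 h were the same under both. No paired analysis was possible because there is 1 array per treatment and time, beyond the time block that the quercetin test already holds.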
